A study of Mus musculus with 6 samples.

Results

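The 32 glycolysis and glycogen genes described here encode the enzymes, isoforms and controlling subunits that carry glucose into a muscle cell, split it to pyruvate and lactate, and store or release it as glycogen. They were chosen by name, and the array carried all of them, as 50 probes in 68 spots whose transcript is a RefSeq transcript of the gene, among 20972 named genes. Each gene is represented by the probe with the highest mean, and all 32 were well above background on all 6 arrays, so none entered the tests through 1 group alone. The genes fall into glucose transport, hexose phosphate steps, phosphofructokinase and its activators, the steps from aldolase to pyruvate, lactate dehydrogenase, glycogen synthesis and glycogen breakdown.

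Glycolysis turns glucose into pyruvate and yields ATP without oxygen, and muscle draws on it most when contraction outruns the supply of oxygen. Glycogen is the glucose store of muscle, built by glycogen synthase and the branching enzyme and opened again by glycogen phosphorylase, which phosphorylase kinase switches on. Most steps are carried out by several isoforms, of which one is typical of striated muscle and the others of liver, brain, blood cells or growing cells.

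The RNA came from mouse muscle that the labels call gastrocnemius and was read on 6 one-colour Agilent arrays, in 3 groups of 2. B10_tap held C57BL/10 mice given tap water, MDX_tap held MDX mice given tap water, and MDX_JJ101 held MDX mice given JJ101, which the series title calls bioceramic water; the labels give 10 months of water. MDX mice carry a mutation of the X-linked dystrophin gene, so their muscle fibres lack functional dystrophin, and the comparisons ask how that genotype and that water differ from their controls. The labels number the replicates without saying that they came from separate animals, so every p-value measures only the spread between these arrays, which may be technical. Age and sex of the mice are not given in the sources used here.

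A level is the log2 of a probe's processed signal after subtraction of the array's 75th percentile, so that 0 is the 75th percentile of the array and 1 unit is a doubling. A gene rose or fell here only where the adjusted p of the fit across all 20869 genes and transcripts was below 0.05, and every direction is relative to that percentile. The share of spots well above background was 42.5% to 43.8% in MDX_JJ101, below the 48.1% to 49.6% of MDX_tap and the 51.4% to 51.6% of B10_tap, and no spot was saturated. The 6 arrays shared 1 slide, with both JJ101 arrays in its lower row and the other 4 in its upper row, so the row and the JJ101 group cannot be told apart. Against the tissue label, 11 of 12 heart muscle markers were tested and all 11 were well above background on all 6 arrays, with Myh6 at 10.17 to 10.45. Of 12 fast skeletal muscle markers, 9 were tested and 5 were well above background on all 6 arrays, while Mylpf, Myod1 and Myog were so on no array. Myh4, the myosin of the fastest limb fibres, was well above background on 4 arrays, at 2.62 and 2.28 in B10_tap, 0.91 and 3.53 in MDX_tap, then -5.52 and -5.42 in MDX_JJ101. The tissue is therefore called muscle RNA below. In such bulk RNA, fewer cells of a type and less RNA per cell cannot be told apart.

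The promoters of the genes are shown first because 17 of their transcripts rose in 1 of the comparisons described below. RefSeq windows of build GRCm38.p6, from 250 bases before to 50 bases after a transcription start, were available for 31 of the 32 genes, in 49 windows; Slc2a4 had none. The letters ACGTG, the core bound by the hypoxia-inducible factors and, within CACGTG, by other E-box factors, were searched on both strands. They occurred in 21 of the 49 windows (42.9%) and in 19.6% of the 32851 windows of all genes. CACGTG, which contains them, occurred in 4 of the 49 (8.16%) against 7.15%, and GGGCGG, the core of the GC box, in 26 (53.1%) against 35.7%. The median GC content was 60.3% in the windows of these genes and 52.7% in all windows. A MEF2 site, named for a factor of striated muscle, occurred in 2 of the 49 windows (4.08%, those of Pfkfb1 and Pgam2) against 3.19%. Of the 16 genes with a window that rose with JJ101 against MDX_tap, 9 held ACGTG, and of the 15 that did not pass the threshold 8 did. These matches describe letters and not bound sites.

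The 150 bases before the most upstream start are printed for 6 genes, 5′ to 3′ on the gene's strand, with matches to ACGTG on either strand in capitals (for Pgam2, the match to the MEF2 site). Pgk1, Pgam1 and Pygm rose with JJ101 and hold the letters, Ldha and Pygl hold them and did not pass the threshold, and Pgam2 rose without them. Over the 31 stretches of this length, 9 hold the letters, from 4 of the 16 genes that rose and 5 of the 15 that did not pass.
Pgk1 (chrX:106186950-106187099, + strand): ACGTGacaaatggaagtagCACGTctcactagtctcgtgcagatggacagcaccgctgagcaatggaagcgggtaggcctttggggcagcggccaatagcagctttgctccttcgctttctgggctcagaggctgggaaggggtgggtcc
Pgam1 (chr19:41911721-41911870, + strand): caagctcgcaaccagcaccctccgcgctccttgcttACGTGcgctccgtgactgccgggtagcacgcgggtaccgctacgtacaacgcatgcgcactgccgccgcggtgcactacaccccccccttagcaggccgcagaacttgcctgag
Pygm (chr19:6384258-6384407, + strand): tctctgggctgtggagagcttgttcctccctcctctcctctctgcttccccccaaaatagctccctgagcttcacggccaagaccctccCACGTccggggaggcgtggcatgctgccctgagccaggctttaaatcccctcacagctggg
Ldha (chr7:46845654-46845803, + strand): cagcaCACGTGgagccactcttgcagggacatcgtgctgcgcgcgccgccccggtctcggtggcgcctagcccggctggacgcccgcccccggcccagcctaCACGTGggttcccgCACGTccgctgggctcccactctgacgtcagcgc
Pygl (chr12:70227684-70227833, - strand): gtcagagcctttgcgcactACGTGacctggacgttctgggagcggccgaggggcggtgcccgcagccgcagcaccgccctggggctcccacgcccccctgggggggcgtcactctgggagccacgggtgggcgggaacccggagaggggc
Pgam2 (chr11:5803797-5803946, - strand): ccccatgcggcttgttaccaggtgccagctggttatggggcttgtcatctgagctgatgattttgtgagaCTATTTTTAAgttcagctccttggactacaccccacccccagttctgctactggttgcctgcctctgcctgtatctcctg

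In MDX mice on JJ101, 17 of the 32 glycolysis and glycogen genes rose against MDX mice on tap water and 0 fell, by 0.43 to 1.11 on the log2 scale. The risers included Gys1, the muscle glycogen synthase, Hk1, which traps glucose in the cell as its phosphate, Pygb and Pygm, which release it from glycogen, and Pfkm and Pfkl, subunits of the main control point of glycolysis. Of the 15 others, Pfkfb3, Pygl and Aldoc had negative differences and 12 had positive ones. The MDX_JJ101 arrays were both above the MDX_tap arrays for 27 genes, below them for 2 and overlapped with them for 3.

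Of all 20869 genes and transcripts tested, 19.9% rose and 16.1% fell in this comparison. Among genes with a mean level of at least 0, a subset chosen after the data were seen, 30.0% rose, against 16 of the 30 such genes described here. Arrays lay apart with MDX_JJ101 higher for 37.3% of all genes, with MDX_JJ101 lower for 7388 of the 20869, and overlapped for 5696. Among genes with a mean level of at least 0 they lay apart higher for 5766 of 11026, beside 26 of the 30 described here. The median difference was 0.51 over the 32 genes, 0.00 over all genes tested and 0.16 over all genes with a mean level of at least 0. Within the third column of the slide, which held 1 array of each MDX group, the median over the 32 genes was 0.55 with 29 positive, and within the fourth it was 0.45, also with 29 positive.

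The calls rested on single arrays, on the scaling and on the model, as did the number of all genes called higher. With the slide column as a block, a limma fit with 1 residual degree of freedom, 0 of the 32 genes and 0 of all genes were called. In that fit 17 of the 32 had an unadjusted p below 0.05, beside 8857 of 20869 over all genes. With MDX_tap replicate 2 left out, the median difference over the 32 genes was 0.62, and with replicate 1 of that group left out it was 0.41. It was 0.46 without replicate 2 of MDX_JJ101, and it stayed at 0.51 without either B10_tap array, which does not enter this difference. Both JJ101 arrays lay above both MDX_tap arrays for all 17 genes. Dropping 1 array could therefore not change their direction. Scaling on the Agilent spike-in controls moved the median of all genes to -0.43 and that of the 32 genes to 0.08. It shifts all genes of an array equally, so the gap of 0.51 between these medians could not change. Of the 32 genes 14 were then negative and 0 were called, where 0.39% of all genes were called higher. Of the 17, Pgk1 changed sign under that scaling, to -0.0081.

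**Figure D1:**
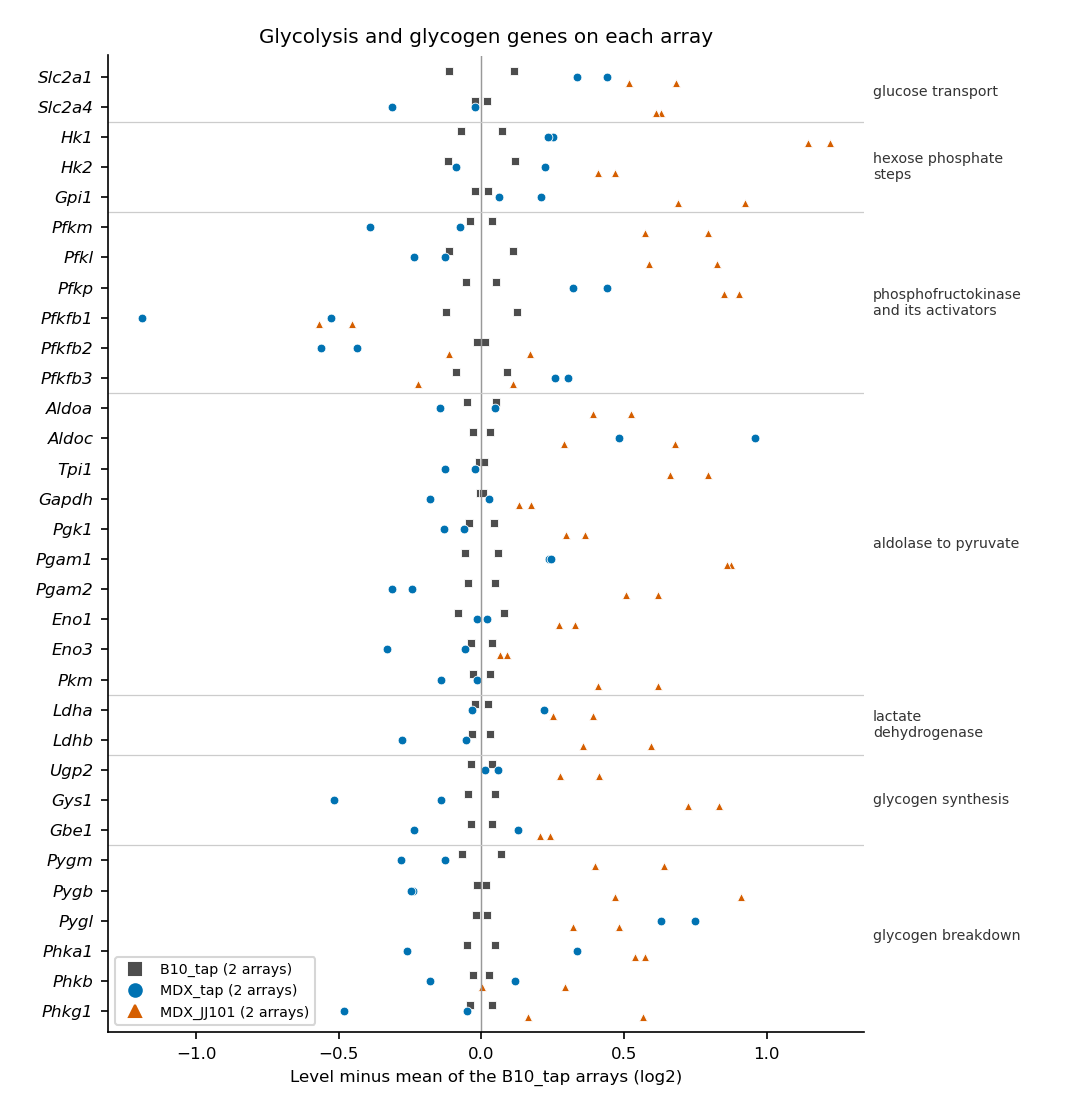
The level of each of the 32 genes on each of the 6 arrays is plotted as the log2 difference from the mean of the 2 B10_tap arrays, with genes grouped by role. The MDX_JJ101 triangles lie to the right of all 4 other arrays for 26 of the 32 genes, relative to each array's 75th percentile, and the MDX_tap circles lie on both sides of 0.

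**Figure D2:**
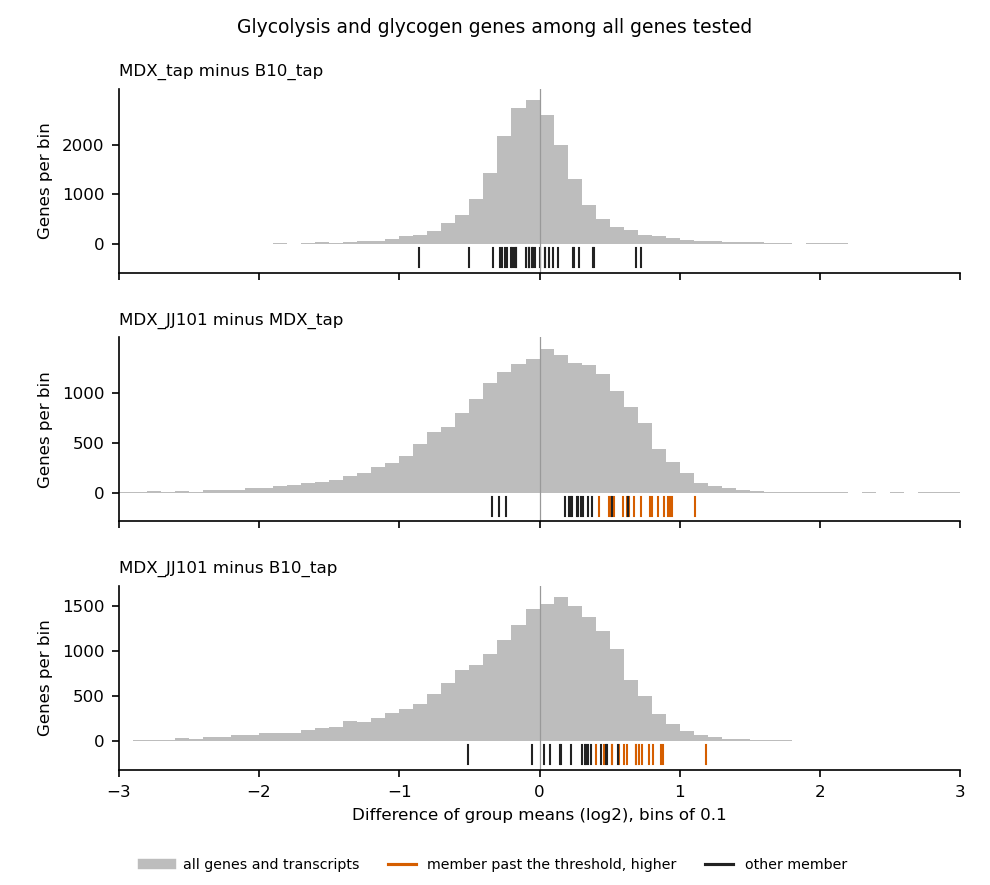
Grey bars count all genes and transcripts by their log2 difference of group means in each comparison, with a small number of genes beyond the plotted range, and ticks under the bars mark the 32 genes. In both JJ101 comparisons the ticks sit to the right of the centre of the bars, at medians of 0.51 and 0.48, and between the tap water groups their median of -0.06 equals that of all genes.

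Glucose transport is shared by Slc2a1, the widely expressed basal transporter, and Slc2a4, the transporter that insulin and contraction bring to the surface of muscle and fat cells. Slc2a4 was at 6.93 and 6.97 in B10_tap, 6.63 and 6.93 in MDX_tap, then 7.58 and 7.56 in MDX_JJ101. Both JJ101 arrays were above all 4 others, and the rise against MDX_tap was 0.79 ± 0.13 (standard error, n = 2 per group), or 1.73-fold, with an adjusted p of 0.0149. Slc2a1 was at 0.98 and 1.21 in B10_tap, 1.43 and 1.54 in MDX_tap, then 1.78 and 1.61 in MDX_JJ101. Its groups followed each other without overlap, and only the step from B10_tap to MDX_JJ101 passed the threshold (0.60 ± 0.13, adjusted p of 0.0256).

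The hexose phosphate steps trap glucose inside the cell and turn it into fructose phosphate. Hk1, the hexokinase that heart and brain express together with most other tissues, had the largest difference between MDX_JJ101 and B10_tap of the 32 genes. It was at 4.60 and 4.74 in B10_tap, 4.93 and 4.91 in MDX_tap, then 5.82 and 5.89 in MDX_JJ101. The rise was 0.94 ± 0.10 against MDX_tap (1.92-fold, adjusted p of 0.0128) and 1.18 ± 0.10 against B10_tap (2.27-fold, adjusted p of 0.00754). Hk2, the insulin-responsive hexokinase of muscle, was at 3.60 and 3.84 in B10_tap, 3.63 and 3.95 in MDX_tap, then 4.19 and 4.13 in MDX_JJ101. Its JJ101 arrays were also the highest, but the difference from MDX_tap of 0.37 ± 0.15 missed the threshold (adjusted p of 0.111) and was -0.06 with spike-in scaling. Gpi1, the phosphoglucose isomerase, was at 7.44 and 7.49 in B10_tap, 7.53 and 7.67 in MDX_tap, then 8.16 and 8.39 in MDX_JJ101. It rose by 0.67 ± 0.13 against MDX_tap (adjusted p of 0.018), and its 2 other probes gave 0.83 and 0.63.

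Phosphofructokinase commits sugar to glycolysis, and the bifunctional Pfkfb enzymes make or remove its activator, fructose 2,6-bisphosphate. Pfkm, the muscle subunit, was at 7.17 and 7.10 in B10_tap, 6.74 and 7.06 in MDX_tap, then 7.71 and 7.93 in MDX_JJ101. Pfkl, the liver subunit, was at 2.11 and 2.34, 1.99 and 2.10, and 2.81 and 3.05 in the same order. In both, the MDX_tap arrays were the lowest and the JJ101 arrays the highest, without overlap. Pfkm rose against MDX_tap by 0.92 ± 0.15 (1.89-fold, adjusted p of 0.0151) and Pfkl by 0.89 ± 0.14 (1.85-fold, adjusted p of 0.0142). Pfkp, the platelet subunit, was at 1.36 and 1.46 in B10_tap, 1.73 and 1.85 in MDX_tap, then 2.26 and 2.31 in MDX_JJ101. The order of its groups was that of Slc2a1 and Hk1, with a rise of 0.50 ± 0.10 against MDX_tap (adjusted p of 0.0224) and 0.88 ± 0.10 against B10_tap (adjusted p of 0.0101). Its other probe gave 0.19 against MDX_tap (adjusted p of 0.556 when every probe was fitted), and with the mean over both probes the gene was not called (0.35, adjusted p of 0.141).

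The activator enzymes differed in the order of their groups. Pfkfb2, the isoform best known from heart, was at 0.11 and 0.08 in B10_tap, -0.34 and -0.47 in MDX_tap, then -0.02 and 0.27 in MDX_JJ101. It was lowest on both MDX_tap arrays, rose with JJ101 by 0.53 ± 0.13 (adjusted p of 0.0344), and its JJ101 and B10_tap arrays overlapped. Pfkfb3, the inducible isoform with the strongest kinase activity, was at 0.81 and 0.99, 1.16 and 1.20, and 1.01 and 0.67 in the same order. Here the MDX_tap arrays were the highest, and the difference between MDX_JJ101 and MDX_tap of -0.34 ± 0.15 was the lowest of the 32 genes (adjusted p of 0.131). The second Pfkfb3 probe, for another transcript, was well above background on neither JJ101 array and at least 1.11-fold lower there than in MDX_tap. Pfkfb1, the liver and skeletal muscle isoform, was at 2.20 and 2.45, 1.14 and 1.80, and 1.76 and 1.87. Both MDX groups were below B10_tap, and none of its differences passed the threshold.

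From aldolase to pyruvate, 6 of 10 genes rose with JJ101 against MDX_tap and 0 fell. Aldoa, the muscle aldolase, was at 10.00 and 9.90 in B10_tap, 9.80 and 9.99 in MDX_tap, then 10.34 and 10.47 in MDX_JJ101, a rise of 0.51 ± 0.12 (1.42-fold, adjusted p of 0.0298). Aldoc, the brain aldolase, was at -2.44 and -2.49, -1.50 and -1.98, and -1.79 and -2.17. It was higher on all MDX arrays than on the B10_tap arrays, and its MDX groups overlapped. Tpi1, which balances the 3-carbon sugars, was at 7.14 and 7.15, 7.02 and 7.12, and 7.81 and 7.94. It rose by 0.80 ± 0.10 (1.75-fold, adjusted p of 0.0129), and its other probe gave 0.81.

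Pgk1, the first ATP-forming enzyme of the pathway, was at 6.68 and 6.59 in B10_tap, 6.50 and 6.57 in MDX_tap, then 6.93 and 7.00 in MDX_JJ101. Its rise of 0.43 ± 0.10 (adjusted p of 0.0283) was the smallest of the 17, and it was not called with normexp (0.23, adjusted p of 0.083) or from the authors' deposited table (0.23, adjusted p of 0.107). Pgam1, the brain-type phosphoglycerate mutase whose promoter is printed above, was at 4.62 and 4.74, 4.91 and 4.92, and 5.55 and 5.54, and rose by 0.63 ± 0.10 (adjusted p of 0.0141). Pgam2, its muscle counterpart, was at 7.62 and 7.71, 7.35 and 7.42, and 8.17 and 8.28, and rose by 0.84 ± 0.10 (1.79-fold, adjusted p of 0.0128). The MDX_tap arrays lay above B10_tap for Pgam1 and below it for Pgam2, and the JJ101 arrays were the highest for both.

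The enolases, which form phosphoenolpyruvate, did not pass the threshold between the MDX groups. Eno1, the general enolase, was at 5.49 and 5.32 in B10_tap, 5.42 and 5.39 in MDX_tap, then 5.68 and 5.73 in MDX_JJ101 (difference between the MDX groups of 0.30 ± 0.11, adjusted p of 0.0777). Eno3, the muscle enolase, was at 8.67 and 8.74, 8.37 and 8.65, and 8.77 and 8.79 (0.27 ± 0.13, adjusted p of 0.147). Pkm, the pyruvate kinase gene of muscle and most other tissues, was at 6.46 and 6.52, 6.35 and 6.47, and 6.89 and 7.11. It rose by 0.59 ± 0.12 (1.51-fold, adjusted p of 0.021).

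Gapdh, which makes the first reducing equivalents of glycolysis and is widely used as a reference gene, depended on the probe. The probe with the highest mean was at 9.85 and 9.86 in B10_tap, 9.67 and 9.88 in MDX_tap, then 9.98 and 10.02 in MDX_JJ101, a difference between the MDX groups of 0.23 ± 0.11 (adjusted p of 0.157). When every probe was fitted, an alternative chosen after the data were seen, 5 of the 7 Gapdh probes rose, by 0.68 to 0.90. The 2 that did not were those with the highest means, at 0.23 and 0.32. For 11 genes more than 1 probe was present, and in this comparison 0 of them had probes of both signs, while 21 genes had 1 probe.

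**Figure D3:**
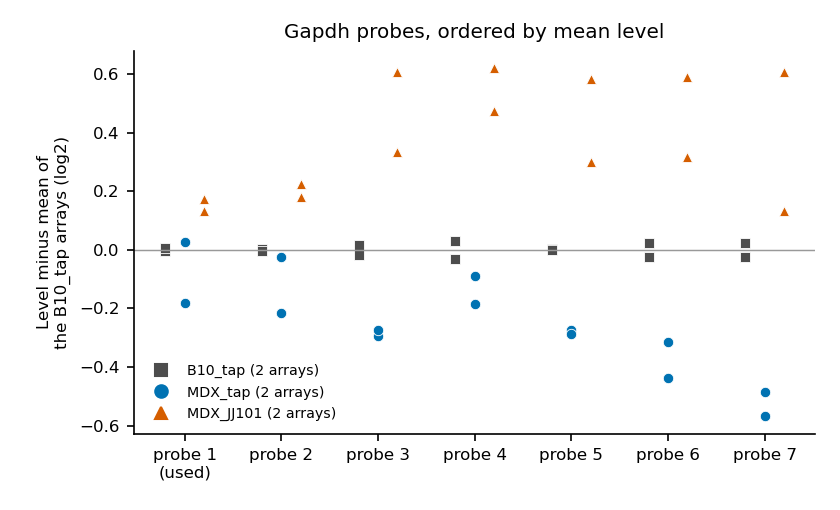
The level of each of the 7 Gapdh probes on each array is plotted as the log2 difference from the B10_tap mean, with probes ordered by their mean level and the one used for the gene on the left. The JJ101 arrays are the highest for all 7 probes, and the gap to MDX_tap is 0.23 for the used probe and 0.90 for the one on the right.

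Lactate dehydrogenase interconverts pyruvate and lactate, with Ldha as the subunit typical of fast muscle and Ldhb as that of heart. Ldha was at 8.39 and 8.44 in B10_tap, 8.38 and 8.63 in MDX_tap, then 8.66 and 8.80 in MDX_JJ101, a difference between the MDX groups of 0.23 ± 0.13 (adjusted p of 0.21). Ldhb was at 8.70 and 8.77, 8.46 and 8.68, and 9.09 and 9.33, and rose by 0.64 ± 0.14 (1.56-fold, adjusted p of 0.0237). For both genes the JJ101 arrays were the highest, and for Ldhb the MDX_tap arrays were the lowest. When every Ldha probe was fitted, the other 2 gave 0.56 (adjusted p of 0.0312) and 0.41 (adjusted p of 0.0554).

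Gys1, the muscle glycogen synthase, had the largest rise of the 32 genes with JJ101. It was at 3.25 and 3.35 in B10_tap, 2.78 and 3.16 in MDX_tap, then 4.02 and 4.13 in MDX_JJ101. The rise was 1.11 ± 0.15 against MDX_tap (2.15-fold, adjusted p of 0.013) and 0.78 ± 0.15 against B10_tap (1.71-fold, adjusted p of 0.0216), and its other probe gave 1.31 against MDX_tap. Ugp2, which makes the activated sugar for glycogen, and Gbe1, the branching enzyme, were highest on the JJ101 arrays with differences of 0.31 and 0.28 from MDX_tap (adjusted p of 0.0683 and 0.186). With spike-in scaling these became -0.13 and -0.16, and Gys1 was at 0.67 and not called (adjusted p of 0.249).

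Glycogen phosphorylase comes in a muscle form, Pygm, a brain form, Pygb, which heart also carries, and a liver form, Pygl. Pygm was at 6.28 and 6.15 in B10_tap, 5.94 and 6.09 in MDX_tap, then 6.61 and 6.86 in MDX_JJ101, and rose by 0.72 ± 0.13 against MDX_tap (1.65-fold, adjusted p of 0.0176). Pygb was at 4.80 and 4.77, 4.55 and 4.54, and 5.26 and 5.70, and rose by 0.93 ± 0.16 (1.91-fold, adjusted p of 0.0162). For both, MDX_tap was lowest and MDX_JJ101 highest without overlap. Pygl ran the other way, at 0.96 and 0.99 in B10_tap, 1.72 and 1.60 in MDX_tap, then 1.29 and 1.46 in MDX_JJ101. The MDX_tap arrays were its highest, with a difference between the MDX groups of -0.29 ± 0.11 (adjusted p of 0.0939), and MDX_JJ101 was above B10_tap (0.40 ± 0.11, adjusted p of 0.0438), which was not called with normexp (0.21, adjusted p of 0.116). The phosphorylase kinase subunits Phka1, Phkb and Phkg1 had differences of 0.52, 0.18 and 0.63 between the MDX groups, with adjusted p of 0.106, 0.405 and 0.0645.

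**Figure D4:**
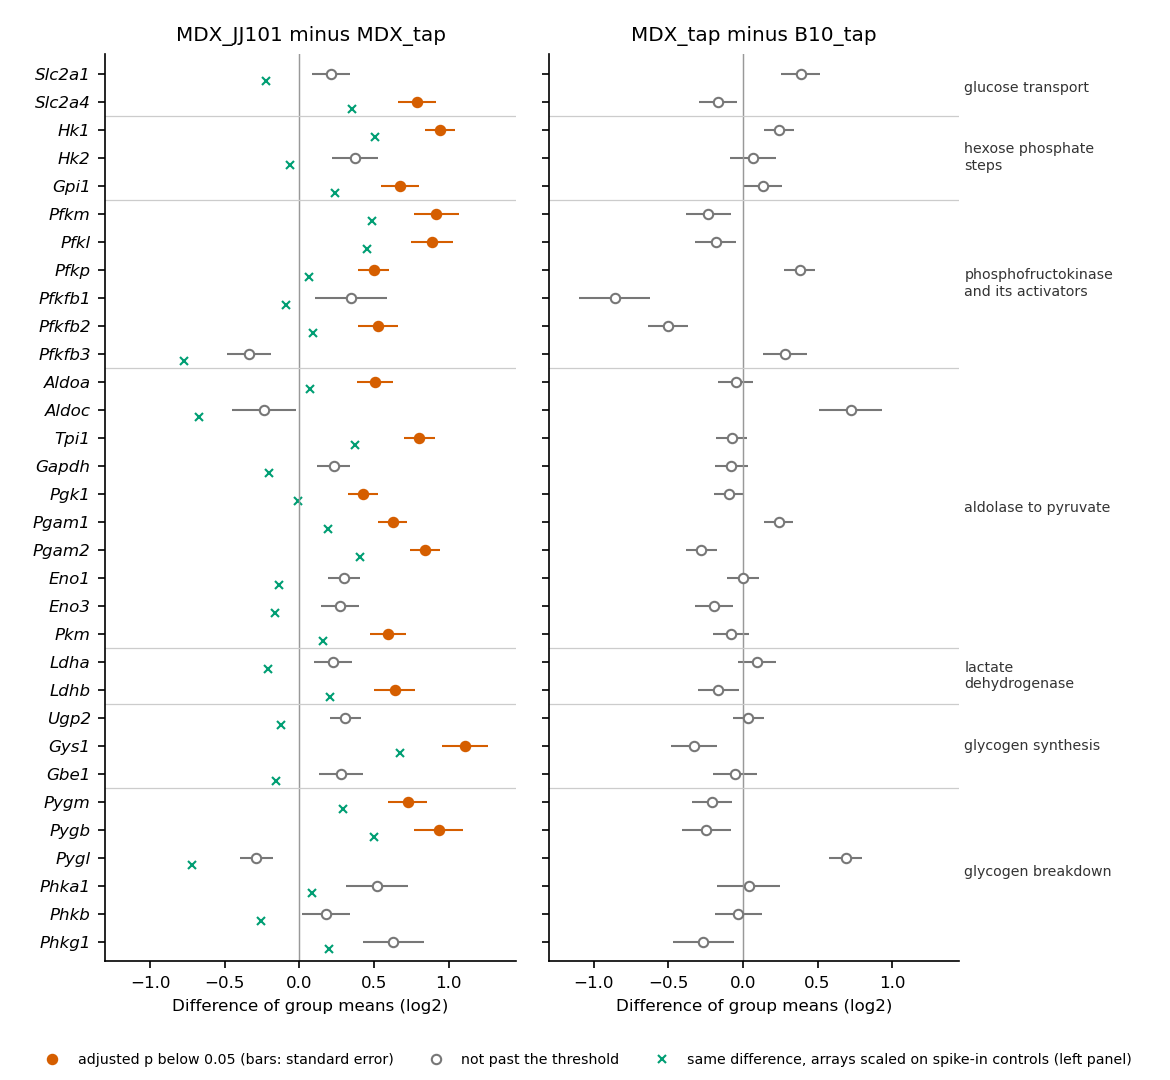
Points are the log2 differences of group means with their standard errors (n = 2 per group) between MDX_JJ101 and MDX_tap on the left and between MDX_tap and B10_tap on the right, by role. On the left 17 points pass the threshold, all higher, and green crosses show the same differences with spike-in scaling, where 14 of the 32 are negative. On the right none passes.

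Between MDX_tap and B10_tap, the comparison of genotypes on tap water, 0 of the 32 genes were called higher or lower by limma. Of all genes tested 0% were called higher and 0.0240% lower. At an unadjusted p below 0.05 there were 7 of the 32, near the share of 4383 of 20869 over all genes. Of these, Pfkfb1, Pfkfb2 and Pgam2 had negative and Pygl, Aldoc, Pfkp and Slc2a1 positive differences. The normexp fit and the authors' table each called 1 of the 32 higher, where 1.40% and 1.24% of all genes were called higher. The smallest adjusted p was 0.0913, for Pygl, with a difference of 0.69 ± 0.11 (1.61-fold). The range ran from -0.86 ± 0.24 for Pfkfb1 to 0.72 ± 0.21 for Aldoc. The median over the 32 genes was -0.06, as over all genes. Arrays lay apart with MDX_tap higher for 8 of the 32 (24.4% of all genes) and lower for 13 (37.0%). Summed levels (linear, relative to the 75th percentile) of the 6 fibroblast markers were 463 to 492 in B10_tap and 722 to 779 in MDX_tap, and those of 7 of 8 macrophage markers were 93.5 to 97.6 and 107 to 130. Their part in these differences was not tested.

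Against B10_tap, MDX_JJ101 was higher for 16 of the 32 genes and lower for 0, where 16.2% of all genes were called higher and 17.4% lower, and 24.8% higher among those with a mean level of at least 0. The largest rises after Hk1 were those of Pfkp, Pgam1, Gpi1, Gys1 and Tpi1, the last by 0.73 ± 0.10 (1.66-fold, adjusted p of 0.0127). The median difference was 0.48, against -0.01 over all genes. Arrays lay apart with MDX_JJ101 higher for 28 of the 32 (37.9% of all genes). Among genes with a mean level of at least 0 this held for 27 of the 30 described here and 6046 of all 11026. Pfkfb1 had the lowest difference, at -0.51 ± 0.24 (adjusted p of 0.15). The 2 JJ101 comparisons share the MDX_JJ101 arrays, so a call in both is not a call made in independent data. Both JJ101 arrays lay above all 4 other arrays for 26 of the 32 genes, against 30.6% of all genes, and below them for 0, against 26.6%. These calls rested on single arrays too, as did the number of all genes called higher. The median over the 32 genes was 0.48 without either B10_tap array and 0.44 without MDX_JJ101 replicate 2. With spike-in scaling 0 of the 32 genes were called, where 0.50% of all genes were called higher. Aldoa and Pygl, called otherwise, were then at -0.0022 and -0.057.

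Other markers moved with JJ101 as well, where 19.9% of all genes were called higher and 16.1% lower. Of 11 heart muscle markers tested, 5 rose and 0 fell in MDX_JJ101 against MDX_tap, with summed levels of 3778 to 3864 in MDX_tap and 4776 to 5054 in MDX_JJ101. Of 9 fast skeletal muscle markers tested, 6 fell and 2 rose, with summed levels of 20.6 to 67.0 and 23.1 to 30.0. Among the 9, Myh4, Myh1 and Actn3 were well above background on 4 arrays, neither of them a JJ101 array. They entered the tests through the tap water groups, and the size of their differences from JJ101 is not known. Of 6 endothelial markers 4 fell (66.1 to 67.7 and 40.5 to 46.6), of 7 macrophage markers 5 fell and 1 rose (107 to 130 and 90.7 to 95.7), and of 6 fibroblast markers 3 fell (722 to 779 and 281 to 421). In MDX_tap the 32 genes also differed between replicates, since 26 of them were lower on replicate 1 than on replicate 2, as were 55.1% of all genes, and Myh4 was lower there too. The part of these cells and arrays in the rise of the glycolysis and glycogen genes was not tested.

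A shift of all genes of an array by the same amount cancels in the ratio of 2 isoform genes on that array, but other processing need not. For 12 such pairs the log2 ratio was set against its mean in B10_tap, and only its change between groups was read. Pygm/Pygl was at -1.03 and -0.76 in MDX_tap and at 0.08 and 0.16 in MDX_JJ101. Slc2a4/Slc2a1 was at -0.65 and -0.46 in MDX_tap and at -0.05 and 0.10 in MDX_JJ101. Pfkm/Pfkp was at -0.71 and -0.51 and then at -0.28 and -0.11. In each of these the ratio lay below B10_tap on both MDX_tap arrays, and the JJ101 arrays lay closer to B10_tap.

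Pgam2/Pgam1, Aldoa/Aldoc and Pfkfb2/Pfkfb3 followed the same course, so that 6 of 12 ratios lay below B10_tap on both MDX_tap arrays and the same number lay higher in MDX_JJ101 than in MDX_tap, with 3 lower and 3 overlapping. Since both counts use the MDX_tap arrays, each gives no support to the other. Against B10_tap, 6 of 12 also lay lower on both MDX_JJ101 arrays. The share over other pairs of genes was not counted. Of single genes, 37.0% lay apart lower in MDX_tap than in B10_tap. With JJ101, 37.3% lay apart higher than in MDX_tap, and 7790 of 20869 lower than in B10_tap. Ldha/Ldhb ran opposite, with 0.25 and 0.27 in MDX_tap and -0.11 and -0.20 in MDX_JJ101. Hk2/Hk1 was at -0.34 and -0.01 in MDX_tap and at -0.68 and -0.81 in MDX_JJ101, a change between the MDX groups of -0.57 towards Hk1. Pygm/Pygb was the third that lay lower with JJ101, by -0.21. Pfkm/Pfkl and Eno3/Eno1 changed by 0.03 and -0.03 between the MDX groups, with overlapping arrays. Under other processing, 7 ratio results were marked as moved and 29 as the same. These ratios have no test, and 2 arrays a group limit their precision.

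**Figure D5:**
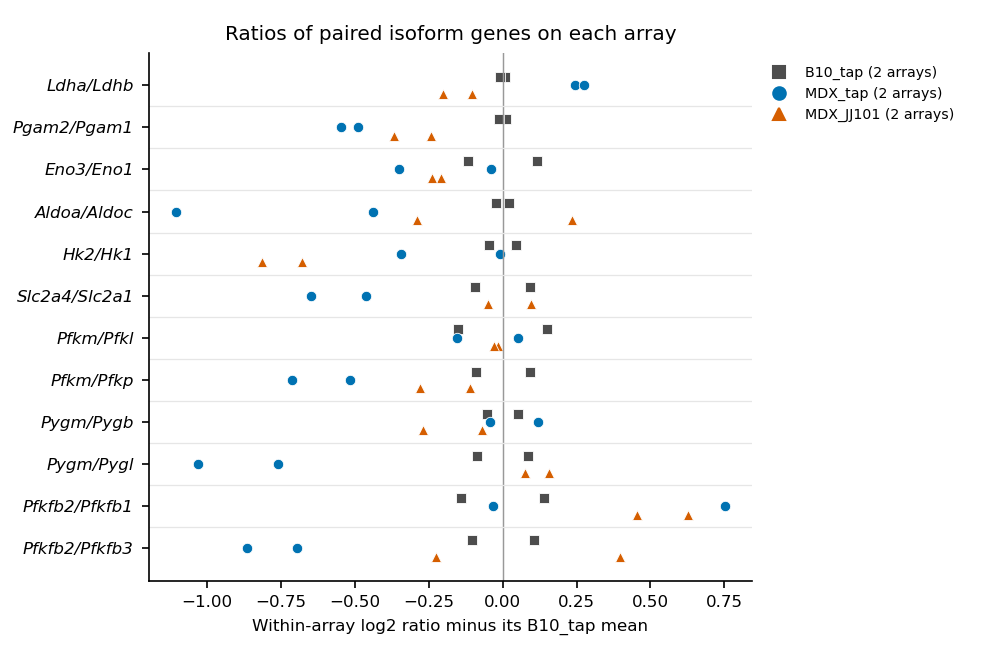
The within-array log2 ratio of 12 pairs of isoform genes is plotted for each array, relative to its mean in B10_tap. The MDX_tap circles lie left of both B10_tap squares for 6 pairs and right of them for Ldha/Ldhb, and the JJ101 triangles lie right of the circles for 6 pairs.

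Of 78 further genes of glucose transport, glycolysis, glycogen, lactate and the entry of pyruvate into mitochondria, 68 could be tested. With JJ101 against MDX_tap, 24 rose and 4 were called lower, where 19.9% of all genes were called higher, 30.0% of those with a mean level of at least 0, and 16.1% lower. The median was 0.34 over the 68. Among the risers with the smallest p values were Mlxipl, the glucose-responsive transcription factor ChREBP (2.14-fold), Pdk2, a kinase that holds back pyruvate oxidation (1.40 ± 0.15), and Pgls of the pentose phosphate pathway (0.87 ± 0.11), with adjusted p between 0.0125 and 0.0129. Slc16a7, a monocarboxylate transporter, fell by 1.59 on the log2 scale (adjusted p of 0.0128), with 1 JJ101 array well above background. Slc16a3, the lactate exporter of glycolytic cells, fell by 0.76 (adjusted p of 0.039), and Pgm2l1 also fell. Pck2 was called lower too, but it was well above background on neither JJ101 array, and the background of those arrays bounds no fall. Between MDX_tap and B10_tap 0 of the 68 were called in either direction, where 0% of all genes were called higher and 0.0240% lower. At an unadjusted limma p below 0.05 there were 14 of the 68, near the share of 4383 of 20869 over all genes. Against B10_tap, 20 were called higher and 6 lower in MDX_JJ101, where 16.2% of all genes were called higher and 17.4% lower, led by Mlxipl (1.20 ± 0.10, 2.30-fold, adjusted p of 0.00727) and Slc16a7 (which fell by 1.77 on the log2 scale, adjusted p of 0.0081). Those called lower included Fbp1, Pck1 and Pck2, which were well above background on neither JJ101 array. The background of those arrays bounds the falls of their group means only at 1.05-, 1.14- and 1.06-fold or more. For Fbp1 and Pck1, 1 B10_tap array each, at -3.77 and -3.89, lay below that background, so array by array no fall is bounded.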

How the data were processed

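The deposited intensity values are scanner output of Agilent Feature Extraction (version 11.5.1.1 in the submitters' processing notes); each array file holds 1 sample, labelled with Cy3. In them the processed signal is background-subtracted, and other deposited columns flag outlier, saturated and well-above-background spots. The authors' deposited log2 table was used as an alternative. Processed signals were converted to log2 and centred on the 75th percentile of each array's non-control spots, outlier spots were left out and spots of a probe averaged. Probes flagged above background throughout a group were kept (27258 of 55681), and the brightest probe stood for a gene, with names from RefSeq (GRCm38.p6). Models with 1 coefficient per group were fitted with limma 3.58.1 in R 4.3.3 (3 residual and 2.21 prior degrees of freedom, two-sided, Benjamini-Hochberg threshold of 0.05) and checked on simulated data. Since 2 arrays against 2 allow no exact permutation p below 0.333, none is given. The mean spot signal that normexp was planned on was not used here, so the median signal took its place (offset of 50). The genes and lists were chosen with earlier results of these data known. The number of arrays limits the precision.

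Values on each array are given for genes past the threshold and for isoform pairs, the others by range and count; of the further genes, at most 4 per direction and comparison are named, and 1 is not reported here.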

Additional observations from a re-analysis of the deposited data

How the results depend on the processing

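The count of glycolysis and glycogen genes called higher in MDX_JJ101 against MDX_tap was 17 with normexp and quantile normalization, with the authors' table, without the filter and with the mean over a gene's probes, 23 with median centring and 10 when only the 2 groups were fitted. In the same order, the share of all genes called higher was 17.4%, 16.6%, 28.4%, 19.3%, 27.3% and 8.42%. Of the 17, 16 were still called with normexp and with the authors' table, with Pgk1 lost and Phkg1 gained, and 16 with the mean over probes, with Pfkp lost and Gapdh gained. The count was 0 with spike-in scaling (0.39% of all genes) and 0 with the slide column as a block (0%), a fit with 1 residual degree of freedom. Against B10_tap the 16 became 28 with median centring, where 40.5% of all genes were called higher. They became 0 with spike-in scaling (0.50% of all genes) or the column block (0%). Leaving out 1 array at a time gave 0 to 17 genes against MDX_tap and 0 to 14 against B10_tap. Genes called lower against MDX_tap numbered 2 with normexp, 1 with the authors' table and 1 with the mean over probes, beside 3843, 3965 and 3407 of all 20869. Against B10_tap 1 was called lower with normexp, beside 3419 of all genes. Between MDX_tap and B10_tap, normexp and the authors' table each called 1 higher, where 1.40% and 1.24% of all genes were called higher. Of the further pathway genes, the 28 called against MDX_tap became 5 with spike-in scaling, 15 with only the 2 groups, 0 with the column block and 0 to 25 without 1 array, and the 26 against B10_tap became 43 with median centring, 8 with spike-in scaling, 0 with the column block and 0 to 25 without 1 array. Between the tap water groups the count was 3 with normexp and 2 with median centring, spike-in scaling or the authors' table. In the same order, 292, 242, 205 and 258 of all genes were called higher, and 102, 43, 210 and 79 lower. With spike-in scaling Pgk1 was at -0.0081 against MDX_tap, and Aldoa at -0.0022 and Pygl at -0.057 against B10_tap. The cause of these changes was not tested. With the replicate number as a block, 16 of the 17 and 13 of the 16 genes were still called, where 16.7% and 12.9% of all genes were called higher. The labels do not pair the replicates, and same-numbered arrays correlated by 0.16, -0.03 and -0.06 in their deviations. Of the 50 probes, 1 (for Pfkfb3) was not well above background on every array, so signal over background limited few of these values.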

Other observations

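The next steps of the pathway can be described from the same fit, with the grouping made after the values were seen. Of 13 genes that carry pyruvate into mitochondria or run and control pyruvate dehydrogenase, 5 rose and 0 fell in MDX_JJ101 against MDX_tap, where 19.9% of all genes were called higher and 30.0% of those with a mean level of at least 0. They were the kinase Pdk2, which switches the complex off, the phosphatase Pdp2, which switches it on, the catalytic subunits Pdha1 (0.65 ± 0.14) and Pdhb (0.38 ± 0.11), and the carrier subunit Mpc2 (0.40 ± 0.11). Pdk4, the kinase that fasting induces, spread as widely within a group as between groups, at 5.29 and 6.33 in MDX_tap and 5.37 and 7.05 in MDX_JJ101 (adjusted p of 0.637).

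Of 16 further genes of glycogen handling tested, 6 rose and 0 fell in the same comparison, beside the same 19.9% and 30.0%. Gaa, the lysosomal enzyme that digests glycogen, was at 5.32 and 5.35 in MDX_tap and 6.13 and 6.40 in MDX_JJ101 (0.93 ± 0.13, adjusted p of 0.013). Gsk3a, a kinase that inhibits glycogen synthase, rose by 0.75 ± 0.13 (adjusted p of 0.0154), in the comparison where Gys1 had the largest rise of the 32 genes. Among the 4 genes of lactate transport, Bsg, the chaperone of the transporters, rose by 0.93 ± 0.13 (adjusted p of 0.013), and Slc16a3 and Slc16a7, transporters themselves, fell.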
